A study of Rattus norvegicus with 4 samples.

Results

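Lymphatic endothelial cells line the vessels that return tissue fluid and immune cells from muscle to the blood. They were sought among total muscle cells from rats aged 12 months, and 59 of 14233 kept cells met the rule. The members were selected on measured values: a cell needed at least 2 UMIs (unique molecular identifiers, 1 per captured transcript) over Prox1, Mmrn1, Flt4 and Lyve1, with at least 2 of these 4 genes detected. It also needed 0 UMIs of the macrophage genes Cd163, F13a1 and Mrc1, and at most 4 UMIs of Dcn, a fibroblast proteoglycan. The 4 genes that chose the members are therefore described below and support nothing.

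The series sets the tibialis anterior (TA), a limb muscle, beside the muscles that move the eye (extraocular muscles, EOM), in rats labelled DMD or wild-type (WT). DMD is the usual abbreviation for Duchenne muscular dystrophy, caused by loss of dystrophin. There is 1 library for each of TA labelled DMD, TA labelled WT, EOM labelled DMD and EOM labelled WT. Strain, allele, sex and the number of animals per library were not given in the sources used here. In all 4 samples the title states the opposite of the disease state field, which was used here, so reading the titles would turn every DMD over WT direction.

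Dmd itself, the dystrophin gene, stood at 25.1, 29.8, 21.7 and 26.6 CPM (counts per 1000000 UMIs) over the kept cells of TA labelled DMD, TA labelled WT, EOM labelled DMD and EOM labelled WT. These 3' tags need not lie in the altered part of the gene, so they check neither label. With 1 library per group no difference between libraries can be tested, and the intervals given are 95% intervals that cover counting error only.

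Lymphatic endothelium is set up by Prox1, the transcription factor that switches endothelial cells to the lymphatic fate and keeps them there. Flt4 (VEGFR-3) is the receptor through which the growth factor VEGF-C drives lymphatic growth, Lyve1 is a hyaluronan receptor of the blind-ended initial lymphatics, and Mmrn1 is a secreted matrix protein of the multimerin family. Initial lymphatics release Ccl21, the chemokine that draws Ccr7-bearing dendritic cells and T cells into the vessel, while collecting vessels have valves built with Foxc2 and Gata2.

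The windows of 300 bases around the annotated start sites of Ccl21, Mmrn1 and Lyve1 are shown because Ccl21 is the gene by which the members are split below, and Mmrn1 and Lyve1 are the rule genes found in most members. They come from RefSeq on the GRCr8 build, at chr5:61777466-61777765 on the minus strand for Ccl21, chr4:91233166-91233465 on the plus strand for Mmrn1 and chr1:174410928-174411227 on the minus strand for Lyve1. Of the 4 rule genes and Ccl21, 4 of 5 were matched, and Prox1 was not. Capitals mark matches on either strand to 3 short motifs.
Ccl21: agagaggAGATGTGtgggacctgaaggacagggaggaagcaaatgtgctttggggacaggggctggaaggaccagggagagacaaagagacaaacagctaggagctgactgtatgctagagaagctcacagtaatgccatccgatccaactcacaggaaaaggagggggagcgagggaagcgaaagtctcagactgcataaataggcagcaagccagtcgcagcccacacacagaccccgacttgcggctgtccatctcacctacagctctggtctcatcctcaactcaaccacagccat
Mmrn1: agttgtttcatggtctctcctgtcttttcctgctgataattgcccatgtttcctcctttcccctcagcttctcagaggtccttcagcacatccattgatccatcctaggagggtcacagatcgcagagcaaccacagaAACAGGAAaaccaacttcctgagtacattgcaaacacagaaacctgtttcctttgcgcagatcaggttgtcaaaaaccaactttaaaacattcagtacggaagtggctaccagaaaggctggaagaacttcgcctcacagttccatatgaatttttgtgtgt
Lyve1: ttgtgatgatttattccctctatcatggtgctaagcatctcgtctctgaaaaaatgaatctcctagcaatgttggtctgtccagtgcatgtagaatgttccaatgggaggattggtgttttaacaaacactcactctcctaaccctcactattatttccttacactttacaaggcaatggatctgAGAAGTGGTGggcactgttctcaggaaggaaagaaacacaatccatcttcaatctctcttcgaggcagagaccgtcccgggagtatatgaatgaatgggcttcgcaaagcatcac

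The motifs searched were AACAAT, the core bound by SOX factors, AACAGGAA, a FOX and ETS composite of endothelial enhancers, and CACNNCT, a form of the site known for Prospero, the fly relative of Prox1. The Mmrn1 window held 1 copy of AACAGGAA, which 2.58% of all 33365 windows hold. The Ccl21 window held 1 copy of CACNNCT and the Lyve1 window 2 copies that overlap each other, a motif found in 49% of all windows. AACAAT, found in 11.7% of windows, was in none of these 3. These are matches of letters and say nothing of binding.

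The members numbered 38 in TA labelled DMD, 2 in TA labelled WT, 12 in EOM labelled DMD and 7 in EOM labelled WT. They made up 0.445% of 8549 kept cells in TA labelled DMD (0.315% to 0.61%, exact Clopper-Pearson). In TA labelled WT they made up 0.0944% of 2119 (0.0114% to 0.341%). In the eye muscles they made up 0.521% of 2303 cells in EOM labelled DMD (0.27% to 0.908%) and 0.555% of 1262 in EOM labelled WT (0.223% to 1.14%). TA labelled WT had the lowest share, and the intervals of all 4 libraries overlapped.

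Within TA the share was 4.71 times as high in the library labelled DMD as in that labelled WT (counting interval 1.22 to 40.3), and the lower count rests on 2 cells. Within EOM the same ratio was 0.939 (0.341 to 2.82). Between the muscles, EOM over TA was 5.88 in the libraries labelled WT (1.12 to 58) and 1.17 in those labelled DMD (0.558 to 2.29). Fewer members and more of the other cells cannot be told apart in a share, nor can fewer cells of a type and cells lost in digestion.

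Blood endothelial cells, defined here by at least 2 UMIs over at least 2 of Cdh5, Flt1 and Emcn with no UMI of the 4 rule genes, numbered 2195, 1238, 463 and 438 in TA labelled DMD, TA labelled WT, EOM labelled DMD and EOM labelled WT. Of both endothelial classes together, 1.7% (1.21% to 2.33%) were members in TA labelled DMD. In TA labelled WT 0.161% were members (0.0195% to 0.581%). The share was 2.53% (1.31% to 4.37%) in EOM labelled DMD and 1.57% (0.635% to 3.21%) in EOM labelled WT. TA labelled WT was again the lowest of the 4.

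Depth differed between the libraries, and its part in these shares was not tested beyond thinning. The median kept cell held 1176 UMIs in TA labelled DMD, 2490 in TA labelled WT, 4540 in EOM labelled DMD and 3671.5 in EOM labelled WT. With every cell thinned to 500 UMIs before the rule was applied, 16, 1, 8 and 8 members remained in that order, or 0.187%, 0.0472%, 0.347% and 0.634% of cells. The count in EOM labelled WT was 1 higher than without thinning. With at least 3 UMIs over the 4 genes the members were 24, 2, 11 and 6. With at most 10% mitochondrial UMIs they were 33, 2, 7 and 1, so 6 of the 7 members of EOM labelled WT lay above that limit, and its share (0.12%) was then as low as that of TA labelled WT (0.121%).

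**Figure D1:**
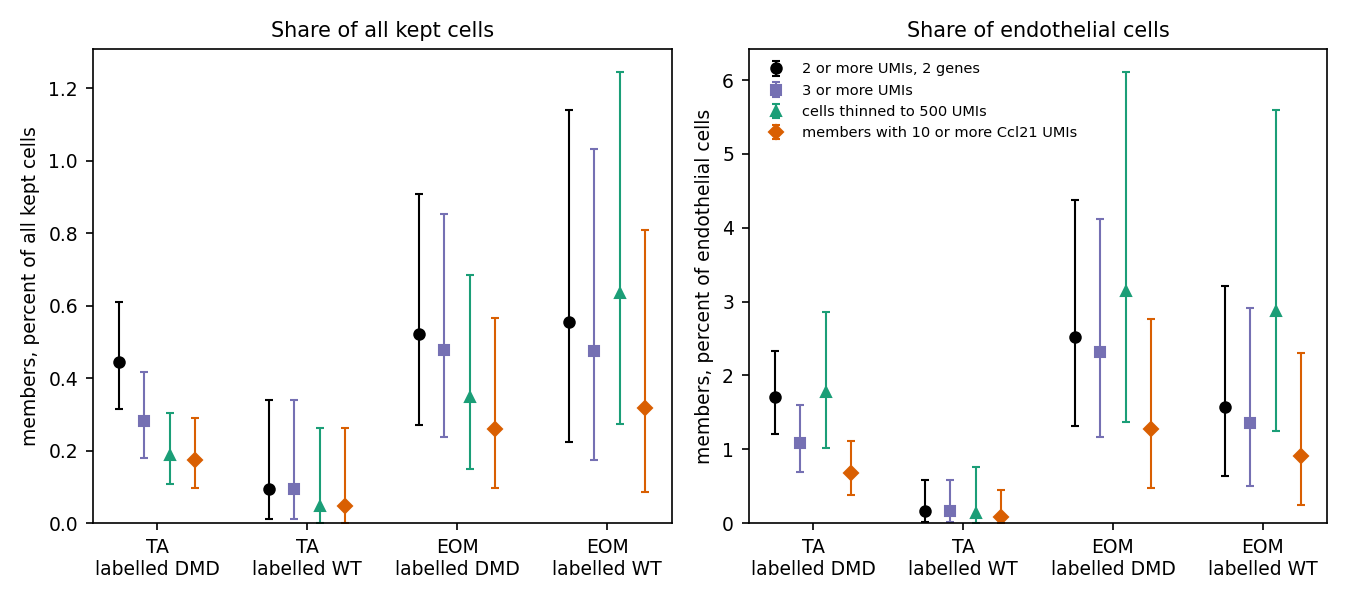
Members as a percentage of kept cells (left) and of both endothelial classes (right) in each library, under 4 definitions of a member. Bars are exact Clopper-Pearson 95% intervals, which cover counting error only. TA labelled WT is the lowest under each definition, at 0.0944% of kept cells with 2 or more UMIs.

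At the edge of the rule, 16 of the 59 members had exactly 2 UMIs over the 4 genes and 43 had 3 or more. A further 807 kept cells had 1 such UMI, and 194 had 2 or more UMIs of a single gene. Another 23 cells met the marker part but carried a macrophage gene, and 1 carried over 4 UMIs of Dcn. Of the 23, 20 were kept out by Mrc1 alone, the mannose receptor, which lymphatic endothelium is also known to express. Of these 20, 12 held at least 10 UMIs of Ccl21, and none of the 12 held 3 or more UMIs over 10 macrophage markers. Those 12 had a median of 33 UMIs over the 4 rule genes and 1 UMI of Mrc1, and the shares above leave them out.

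Among the rule genes, Mmrn1 was detected in 46 members with 260 UMIs and Lyve1 in 49 with 256 UMIs. Prox1 was seen in 26 members with 44 UMIs, and Flt4 in 26 with 53 UMIs. Mmrn1 had 544, 1453, 670 and 2679 CPM over the summed members of TA labelled DMD, TA labelled WT, EOM labelled DMD and EOM labelled WT. Lyve1 had 666, 484, 743 and 1767 CPM in the same libraries. Both were highest in EOM labelled WT, whose 7 members sum to 17546 UMIs.

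Not every rule gene was detected in each member. The rule asks for only 2 of the 4 genes, and 16 members had exactly 2 UMIs over them. The counts below therefore do not show whether the genes go together, and the part of sparse counts was not tested. Mmrn1 and Lyve1 were both present in 37 members, and for 17 they were the 2 genes that met the rule. For 6 members these were Flt4 and Lyve1, and for 6 they were Prox1 and Lyve1. All 4 genes were detected in 9 members, 3 genes in 11 and 2 genes in 39.

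Ccl21 was not in the rule, so it is a measure that did not choose the members. It was detected in 23 of 38 members of TA labelled DMD, 1 of 2 of TA labelled WT, 7 of 12 of EOM labelled DMD and 4 of 7 of EOM labelled WT. Its UMIs over those members were 1135, 214, 1591 and 1338, or 7264, 11515, 10551 and 76257 CPM. Blood endothelial cells held 9.3, 1.53, 4.24 and 3.34 CPM in the same libraries. The 4 libraries thus each had Ccl21 far above the blood endothelial level. EOM labelled WT had the highest CPM, with 1058 of its 1338 UMIs in 1 member, and EOM labelled DMD had the most UMIs.

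Thinned to 500 UMIs per cell, Ccl21 was present in 44.7%, 50%, 50% and 57.1% of the members of TA labelled DMD, TA labelled WT, EOM labelled DMD and EOM labelled WT. In thinned blood endothelial cells it was present in 0.638%, 0%, 0.216% and 0.228%, at unthinned medians of 2080, 2387.5, 2787 and 2262.5 UMIs. The members' own medians were 1528.5, 9292, 3293.5 and 2020 UMIs. Unthinned, 35 of 59 members had a Ccl21 UMI. The blood endothelial share lay below the members' share in each library, which in TA labelled WT rests on 2 members. Those blood endothelial cells were chosen to hold no UMI of the rule genes, so they do not give the level of free RNA. The part of free RNA was not tested.

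The members split by Ccl21 into 26 with at least 10 UMIs, 9 with 1 to 9 and 24 with none. The split was 15, 8 and 15 members in TA labelled DMD, 1, 0 and 1 in TA labelled WT, 6, 1 and 5 in EOM labelled DMD, and 4, 0 and 3 in EOM labelled WT. The median member held 1630 UMIs in the Ccl21-high set, 2866 in the middle set and 2859.5 in the set without Ccl21. The part of depth in this split was not tested. In the Ccl21-high set the rule genes had a median of 69.4 UMIs per 10000, against 14.1 in the set without Ccl21. Those genes chose the members, and a deep cell can enter with few of their UMIs, so these 2 values support nothing. Lymphatic genes other than Ccl21 and the rule genes had a median of 48.4 UMIs per 10000, against 21.9 in the set without Ccl21.

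**Figure D2:**
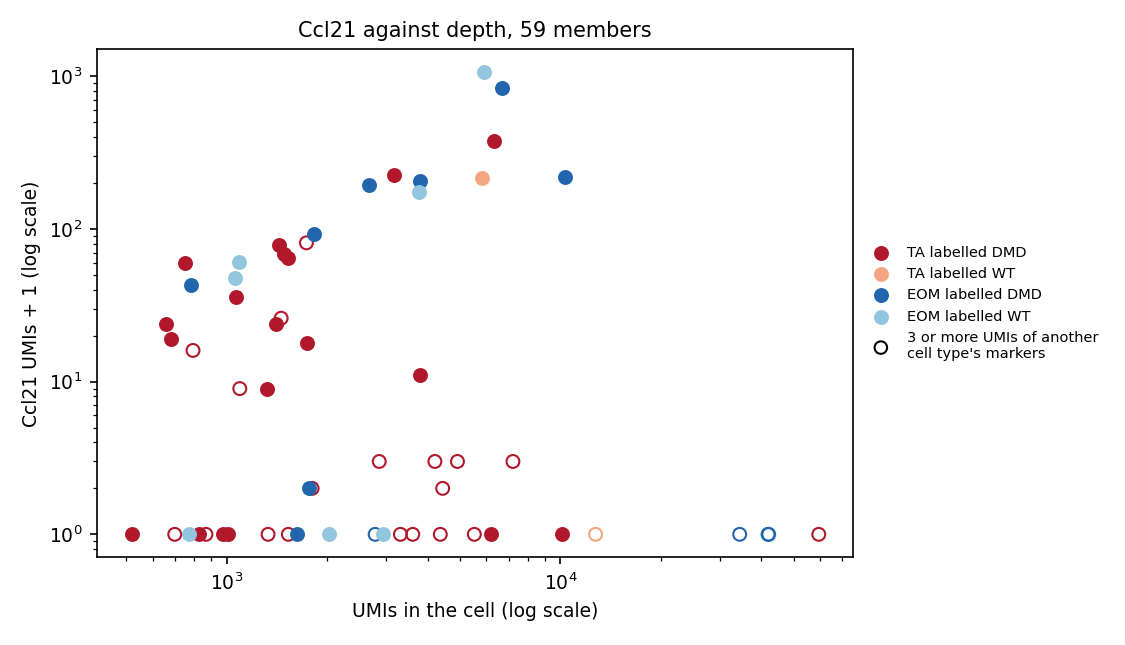
Ccl21 UMIs plus 1 against total UMIs for each of the 59 members (both axes on a log scale), coloured by library, with open circles for members holding 3 or more UMIs of another cell type's markers. The 4 members over 20000 UMIs all have 0 Ccl21 UMIs.

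The sets differed in other lymphatic genes. Pdpn, the membrane glycoprotein podoplanin, was seen in 12 of 26 Ccl21-high members with 24 UMIs and in 4 of 24 without Ccl21 with 6 UMIs. Reln, the secreted glycoprotein reelin that lymphatic endothelium is known to release, was seen in 19 of 26 with 54 UMIs and in 7 of 24 with 19 UMIs. Tbx1, a transcription factor needed for lymphatic growth in the mouse, was seen in 11 of 26 and in 6 of 24. Each of these 3 was thus found in a larger share of the Ccl21-high members, although that set holds 71830 UMIs against 241711 in the set without Ccl21.

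Other lymphatic genes were seen in the set without Ccl21. Foxp2, a transcription factor of collecting lymphatics in the mouse, had 16 UMIs in 5 of 24 members without Ccl21 and 0 in the 26 Ccl21-high members. Ackr4, the scavenging receptor for Ccl21 and related chemokines, had 14 UMIs in 5 of 24 and 0 in the 26. Cldn11, a claudin of lymphatic valves in the mouse, had 13 UMIs in 3 of 24 and 2 UMIs in 1 of 26. Pkhd1l1, a large membrane protein with no settled role here, was seen in both sets, with 76 UMIs in 11 of 24 members without Ccl21 and 30 UMIs in 17 of 26 Ccl21-high members. These are single-cell counts of few cells, and no test was run on them.

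Over the whole blood endothelial list the sets were close, at a median of 36 UMIs per 10000 in the Ccl21-high set, 38.8 in the middle set and 40 in the set without Ccl21. Single genes of the list differed more, in sums that also reflect the greater depth of the set without Ccl21. Vwf, the clotting glycoprotein stored by blood endothelium, had 274 UMIs in 8 of those 24 members and 0 in the 26 Ccl21-high members. Flt1 (VEGFR-1) had 209 UMIs in 9 of 24 against 3 UMIs in 3 of 26. Plvap, the diaphragm protein of fenestrated endothelium, had 276 UMIs in 13 of 24 and 4 UMIs in 4 of 26. Notch4 and Cd34 were at 0 UMIs in the 26 and had 15 and 13 UMIs in the 24.

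Few cells carry those sums. The 4 members over 20000 UMIs, 1 in TA labelled DMD and 3 in EOM labelled DMD, held 59478, 34466, 41917 and 42100 UMIs and no Ccl21. Their rule UMIs were 4, 3, 3 and 18, and their UMIs over the blood endothelial list were 433, 410, 308 and 430. The deepest member alone held 38.1% of all member UMIs of TA labelled DMD. Over all kept cells 132 exceeded 20000 UMIs, and no doublet caller was run here, so the part of doublets in these members was not tested.

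Markers of other cell types were counted over fixed lists. All 59 members had a pan-endothelial UMI, and 50 had at least 3 UMIs of lymphatic genes other than Ccl21 and the rule genes. The share of blood endothelial cells past these limits was not computed, so the 2 counts do not set the members apart. The lymphatic list holds genes that blood endothelial cells also express, such as Sox18, which was lower in the members. At least 3 UMIs of another cell type's markers, erythroid genes left out, were found in 24 members, of which 19 were in TA labelled DMD, 1 in TA labelled WT, 4 in EOM labelled DMD and 0 in EOM labelled WT. By Ccl21, they were 3 of 26 members with at least 10 UMIs, 7 of 9 with 1 to 9 and 14 of 24 with none. Fibroblast markers passed that limit in 17 members, mural (pericyte and smooth muscle) markers in 15, satellite cell markers in 5, and macrophage and myofibre markers in 2 each.

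Within those lists the defining genes varied. Gsn, which many cells express, made up 497 of the 611 fibroblast UMIs, and Pdgfra, the defining fibroblast receptor, had 1 UMI in all members. Other genes of that list were more frequent. In the 24 members without Ccl21, Col3a1 had 56 UMIs in 8 members and Dpt had 24 UMIs in 5. In the comparison with blood endothelial cells below, 2 fibroblast genes were tested, with a median log2 ratio of 1.10 and 1 at least 2-fold higher. Of 10 macrophage markers 5 had UMIs, 32 in all, namely Lyz2 (12), Cd14 (9), Cd68 (6), Tyrobp (3) and Fcer1g (2), and 14 of the 32 lay in 1 member of TA labelled DMD with 699 UMIs. The other 5, Ptprc, Csf1r, C1qa, C1qb and C1qc, were at 0. The lists of T and NK cell and mesothelial markers had no UMI. In 1 member of EOM labelled DMD 3666 of 10336 UMIs were of the erythroid list, which does not hold every haemoglobin gene. Outside the list, Hbb-bs had 604 of its 614 UMIs in 1 member, and LOC100134871 had 2872 of 2903 in 1 member. The member with 3666 erythroid UMIs stayed in. An alternative scaling left out mitochondrial and ribosomal protein genes and symbols starting with Hba or Hbb, but kept LOC100134871. The counts of genes given below were then 80 higher and 63 lower. The part of the other transcripts in the values below was not tested beyond leaving out the 24 members.

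**Figure D3:**
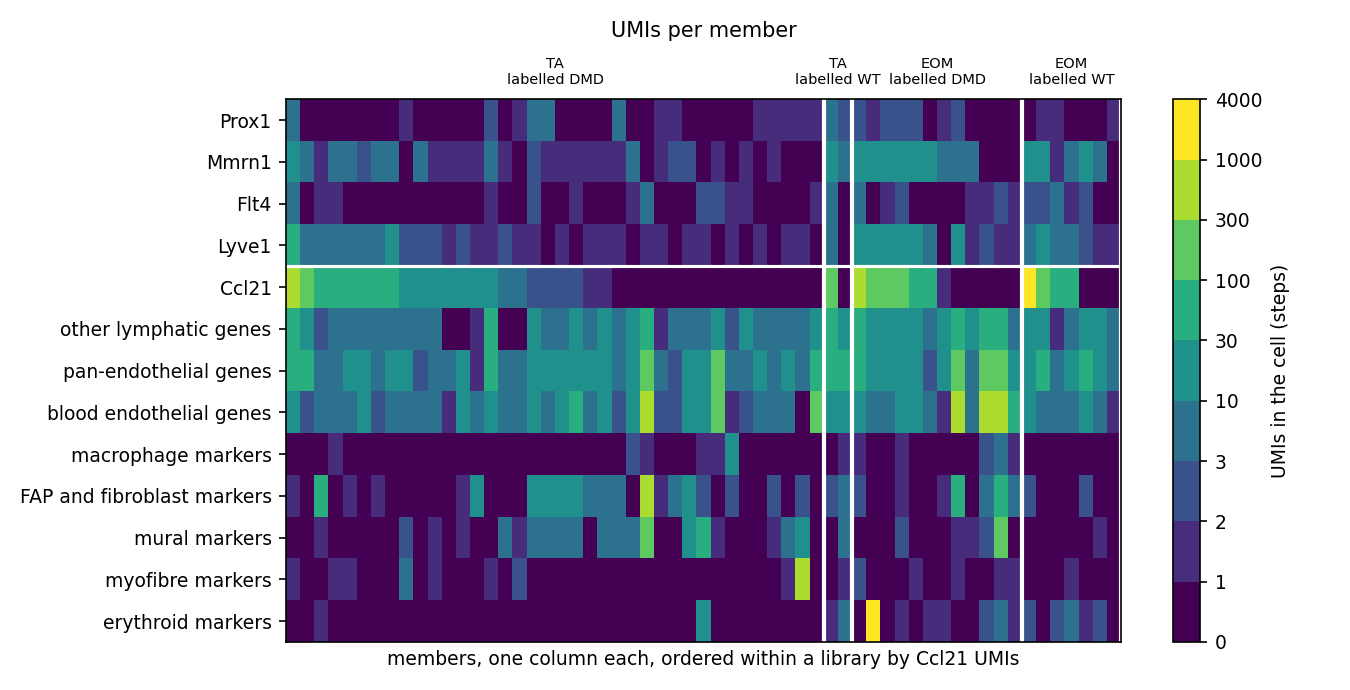
UMIs of the 4 rule genes (above the white line), of Ccl21 and of 8 gene lists in each of the 59 members, in colour steps. Columns are members, grouped by library and ordered by Ccl21. Members without Ccl21 hold 491 of 611 UMIs of fibroblast genes and 388 of 431 of mural genes, and also 241711 of all 343167 UMIs.

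The members were then set against blood endothelial cells of the same library, which asks what marks lymphatic from blood endothelium beyond the genes that defined either. CPM was computed over the summed cells of each class and library, and log2 ratios used a prior of 50 CPM and the mean CPM over the 4 libraries. Of 1070 genes with at least 50 UMIs over the members, 70 (6.54%) were at least 2-fold higher and 71 (6.64%) at least 2-fold lower in the members. The median over all tested genes was 0.05. No p-value goes with these counts, since the cells of both classes were chosen by their transcripts. Leaving out members with another cell type's markers gave 159 lower genes, and leaving out members over 20000 UMIs gave 116.

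Genes were named by the smallest of their 4 library ratios, with the same sign in all 4. Ccl21 led with a log2 ratio of 8.92. Reln followed in size at 3.29, with 192, 323, 126 and 1140 CPM in members of TA labelled DMD, TA labelled WT, EOM labelled DMD and EOM labelled WT against 0.45, 0, 1.41 and 0 CPM in their blood endothelial cells. Its UMIs came from 28 members and no more than 7 from any of them. The summed members lay above the summed blood endothelial cells in each library, which the naming of genes requires.

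Pkhd1l1 had 192, 646, 345 and 1140 CPM in the members of those libraries against 35.7, 10.1, 36.1 and 55 CPM in blood endothelial cells, a log2 ratio of 2.90. Lbp, the binding protein for bacterial lipopolysaccharide, had 102, 377, 285 and 741 CPM in members against 17.1, 4.89, 2.83 and 6.67 CPM in blood endothelial cells, a log2 ratio of 2.88. Nsg1, a protein of endosomal trafficking, had 166, 269, 139 and 570 CPM in members against 3, 0.916, 4.95 and 5 CPM in blood endothelial cells, a log2 ratio of 2.65. In each of these 3 genes the summed members of every library lay above the summed blood endothelial cells of every library. The way genes were named favours such a gap, and the share of all tested genes with one was not computed.

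The other 7 genes named as higher ranged from 1.30 to 2.40. They were Tgfbi (a matrix protein induced by TGF-beta, 2.40), Ucp2 (a mitochondrial carrier, 2.30), Mal (a lipid raft protein, 2.12), Ccdc80 (a matrix protein, 1.71), Aph1b (a gamma-secretase subunit, 1.62), Nudt4 (a diphosphoinositol polyphosphate hydrolase, 1.32) and Clic2 (a chloride channel family protein, 1.30). With Ccl21, Reln, Pkhd1l1, Lbp and Nsg1 they make up the 12 named. Without TA labelled WT, Clic2 was at 0.99, just under 2-fold. Against venous endothelial cells only (blood endothelial cells in which both Vwf and Selp were detected), Mal was at 0.80 and Aph1b at 0.81, under 2-fold, and Lbp at 1.39. These venous cells numbered 200, 6, 6 and 4 in TA labelled DMD, TA labelled WT, EOM labelled DMD and EOM labelled WT. Mal rested on few cells, since 28 of its 60 UMIs came from 1 member of EOM labelled DMD.

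Among the genes named as lower, Cxcl12, the chemokine that binds Cxcr4, had the lowest log2 ratio at -3.26. It had 608, 0, 935 and 0 CPM in members of TA labelled DMD, TA labelled WT, EOM labelled DMD and EOM labelled WT, against 1621, 2830, 5621 and 6392 CPM in blood endothelial cells. The 2 zeros allow up to 161 CPM in TA labelled WT and 171 CPM in EOM labelled WT. Of 236 UMIs, 119 came from 1 member, and 223 lay in members without Ccl21. Against venous cells only, the ratio of Cxcl12 was -0.17.

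Aqp1, the water channel of continuous capillaries, had 1773, 53.8, 1552 and 627 CPM in members against 4306, 8902, 9462 and 8660 CPM in blood endothelial cells, a log2 ratio of -2.91. The junction protein Jam2 was at -2.01, and Igfbp3, which binds insulin-like growth factors, at -2.11, but Igfbp3 turned to 0.71 against venous cells only. The others were Adgrg1 (an adhesion receptor, -2.15), Podxl (a sialomucin of the luminal surface, -1.96), Cd59 (an inhibitor of complement, -1.86), S1pr1 (the receptor for sphingosine 1-phosphate, -1.42), Rtn1 (a reticulon of the endoplasmic reticulum, -1.31) and Plk2 (a polo-like kinase, -1.10). Against venous cells only, 5 of these 6 were under 2-fold: Adgrg1 (-0.87), Podxl (-0.94), Cd59 (-0.88), S1pr1 (-0.71) and Plk2 (-0.93). Aqp1, Jam2 and Rtn1 stayed past it, at -2.59, -2.04 and -1.28.

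**Figure D4:**
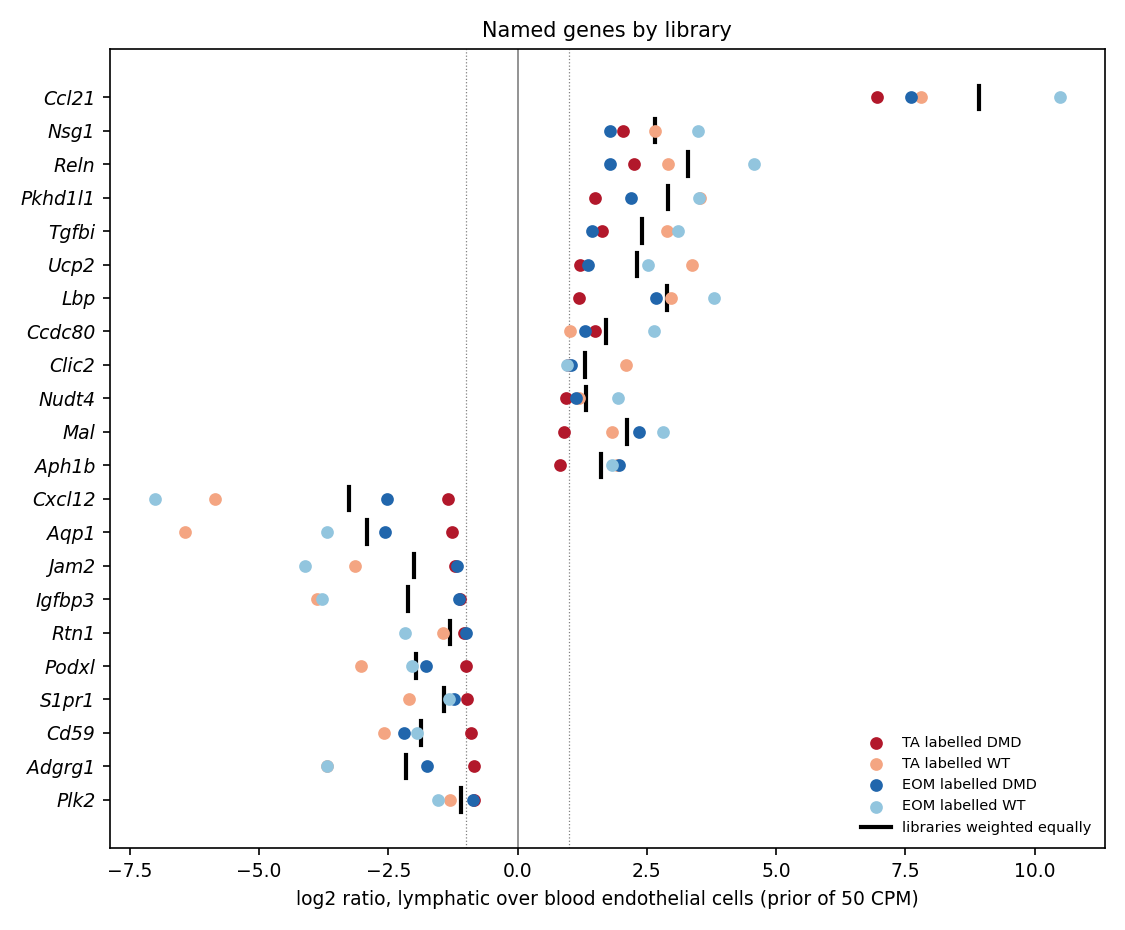
Log2 ratio of members over blood endothelial cells for the 12 genes named as higher and the 10 named as lower, with 1 point per library and a bar for the libraries weighted equally. Dotted lines mark 2-fold. Ccl21 stands at 8.92 and Cxcl12 at -3.26.

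Of 29 lymphatic identity genes beyond the rule, 27 had a UMI in the members and 5 reached 50 UMIs. Of these 5, Ccl21, Reln and Nr2f2 were at least 2-fold higher, and none was 2-fold lower, with a median of 1.38 against 0.05 over all tested genes. Nr2f2 (COUP-TFII), the venous and lymphatic partner of Prox1, stood at 1.38 but had 0 UMIs in EOM labelled WT. Klhl4 stood at 0.89 and the lymphatic inducer Sox18 at -0.61. Pdpn, with 30 UMIs, stayed under the limit, at 64, 269, 73 and 228 CPM in members of TA labelled DMD, TA labelled WT, EOM labelled DMD and EOM labelled WT against 3.45, 0.611, 0.707 and 1.67 CPM in blood endothelial cells.

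Of 10 blood endothelial genes tested outside the class definition, 6 were at least 2-fold lower and 1 higher, with a median of -1.96. The lower genes were Tcf15 (-3.04), Aqp1 (-2.91), Rgcc (-2.89), Sox17 (-2.05), and Podxl and Gpihbp1 (both -1.96). Tcf15 is a transcription factor of capillary endothelium, and Gpihbp1 carries lipoprotein lipase to the capillary lumen. Plvap was the gene that was higher, at 1.08, and 86 of its 301 UMIs came from 1 member. The median of this list was -0.35 in TA labelled DMD, -3.43 in TA labelled WT, -1.93 in EOM labelled DMD and -3.65 in EOM labelled WT.

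Pan-endothelial genes, 10 tested, had a median of -0.63, with 4 at least 2-fold lower (Esam, S1pr1, Tek and Eng) and 0 higher. Genes of VEGF-C and related signalling, 8 tested, had a median of -0.37, with Tek (Tie2, the angiopoietin receptor) lower and 0 higher. Over all 1070 tested genes, 6.54% were at least 2-fold higher and 6.64% at least 2-fold lower. The counts of genes for each list, above and below, rest on few genes and were not tested against these shares. Kdr (VEGFR-2), which also binds processed VEGF-C, was at -0.57, at 557, 377, 597 and 798 CPM in members of TA labelled DMD, TA labelled WT, EOM labelled DMD and EOM labelled WT against 412, 1287, 877 and 990 CPM in blood endothelial cells. The ligand Vegfc had 18 UMIs over all members, and Vegfd had 0.

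Of 11 leukocyte trafficking genes tested, Ccl21 was higher and Cxcl12 and S1pr1 lower, with a median of 0.18 that fell below 0 under some alternatives, down to -1.04 without members holding other cell types' markers. Spns2, the exporter of sphingosine 1-phosphate by which lymphatic vessels let lymphocytes leave lymph nodes, stood at 0.18. Il33 and Vcam1, at 0.91 and 0.90, did not reach 2-fold, and 85 of 189 Il33 UMIs came from 1 member. Il33 was at -0.40, -1.23, 2.89 and -1.59 in TA labelled DMD, TA labelled WT, EOM labelled DMD and EOM labelled WT. Vcam1 was at -1.46, 0.72, 2.54 and -0.42 in the same libraries. It had UMIs in 5 members, with 43 of 87 in 1 of them. Ccr7, the receptor of Ccl21, had 0 UMIs in the members.

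Junction genes, 7 tested, had a median of -0.79, with Jam2 and Esam lower and 0 higher. Cldn5, the claudin of endothelial tight junctions, stood at -0.07, with UMIs in 47 members. Valve and flow genes, 7 tested, had a median of -0.37, with Nrp1 (-2.62) and Klf4 (-1.20) lower and 0 higher. Foxc2 and Itga9, which build lymphatic valves, had 17 and 2 UMIs over all members, too few to compare.

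Lipid handling genes, 9 tested, had a median of -1.03, with 5 lower (Fabp5, Gpihbp1, Fabp4, Apoe and Cav1) and Angptl4 higher at 1.49. Few cells carried Angptl4, with 116 UMIs in 5 of the 24 members without Ccl21. It had 13 UMIs in 4 of the 9 members with 1 to 9 Ccl21 UMIs, and 1 UMI in the 26 Ccl21-high members. Fabp4, the fatty acid carrier of capillary endothelium and fat cells, had 16737, 53.8, 3952 and 228 CPM in members of TA labelled DMD, TA labelled WT, EOM labelled DMD and EOM labelled WT, against 14810, 16768, 18449 and 14005 CPM in blood endothelial cells. TA labelled DMD was thus the 1 library whose members were not below its blood endothelial cells, and 1456 of its 2615 UMIs lay in 1 member.

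Class I antigen presentation and interferon genes, 8 tested, had a median of -0.38, with 0 past 2-fold in either direction. B2m, the light chain of class I molecules, was found in 58 members. RT1-A1 and RT1-CE10, its heavy chains, share near-identical copies, so their counts are uncertain. Class II genes had no member tested, with 5 of 8 detected, and Cd74 had 7 UMIs in 3 members. Mx2, an interferon-induced GTPase, had 12 UMIs, all in 6 Ccl21-high members.

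Immediate early and heat shock genes, 14 tested, had a median of -0.52, with Dusp1 (-1.51) and Atf3 (-1.01) lower and 0 higher. Fos, an early gene known to respond to tissue digestion, stood at 0.19, with UMIs in 47 members. Hyaluronan and basement membrane genes, 4 tested, had a median of -0.89, with Timp3 (an inhibitor of metalloproteases, 1.11) higher and Sparc (-1.79) and Col4a1 (-1.30) lower. Of 3 cell cycle genes tested, Ccnd1 was higher at 1.65, with 33 of its 86 UMIs in 1 member. Its ratio was 0.05, 1.43, 2.67 and 1.97 in TA labelled DMD, TA labelled WT, EOM labelled DMD and EOM labelled WT. Mki67 had 3 UMIs over all members and Top2a had 0.

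**Figure D5:**
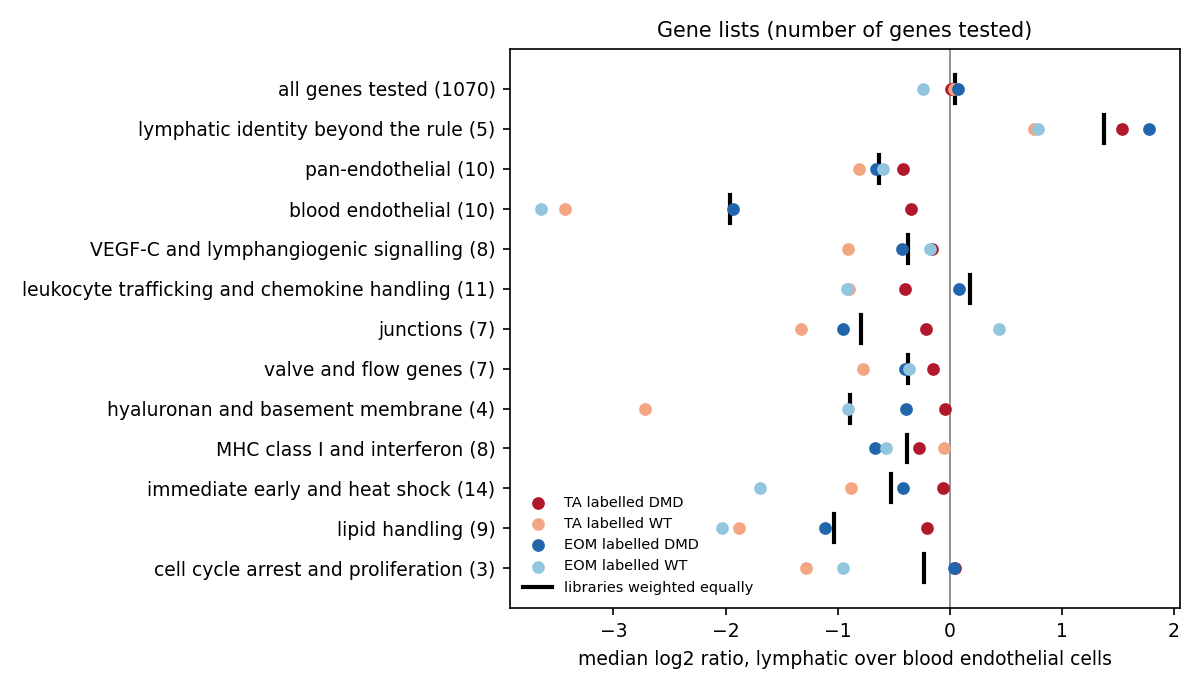
Median log2 ratio of members over blood endothelial cells for each gene list with at least 3 genes tested (number in brackets), with 1 point per library and a bar for the libraries weighted equally, which can lie outside the points because it is a median over other ratios. TA labelled DMD lies nearer 0 than TA labelled WT for the blood endothelial list, at -0.35 against -3.43.

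Between libraries, no contrast of genes could be made, because only TA labelled DMD reached the 20 members set as the minimum for a library, so 0 of 4 contrasts were run. Values of the members can only be set side by side. Reln, Pkhd1l1, Lbp and Ccl21 had their highest CPM in EOM labelled WT, where 1 UMI is worth 57 CPM. In TA labelled DMD 1 UMI is worth 6.4 CPM, so small counts there are known more finely.

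Igfbp5, which binds insulin-like growth factors, is given because it stood out after its values were seen. It had 105, 3, 585 and 71 UMIs in 15, 2, 9 and 5 members of TA labelled DMD, TA labelled WT, EOM labelled DMD and EOM labelled WT. These are 672, 161, 3879 and 4047 CPM, against 470, 15.6, 52.3 and 17.5 CPM in blood endothelial cells. Over all kept cells Igfbp5 stood at 962, 452, 5042 and 2816 CPM, so its level in EOM was also high outside the members. In TA labelled DMD, TA labelled WT and EOM labelled DMD the members lay below the library as a whole. By Ccl21, Igfbp5 had 646 UMIs (2673 CPM of the sum) in members without it and 99 UMIs (1378 CPM) in the Ccl21-high members.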

How the data were processed

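Total cells released by enzymatic digestion were profiled on the 10x Genomics Chromium system with 3' chemistry, per the labels' protocols. The deposited values are whole-number UMI counts per gene and barcode that the authors did not normalize, over 25399 genes. Per the file headers, the authors counted with Cell Ranger 4.0.0, on the rn6 build, per the submitters' processing notes. Annotation and cell calling settings were not given in the sources used here. Groups follow the disease state field of the labels.

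Barcodes with at least 500 UMIs, at least 200 genes and at most 20% mitochondrial UMIs were kept, 14233 of 17504. Total counts per library were 20685086 (TA labelled DMD), 9955900 (TA labelled WT), 14953593 (EOM labelled DMD) and 9468266 (EOM labelled WT). The members' own sums were 156243, 18584, 150794 and 17546 UMIs, so 1 UMI is worth 6.4 to 57 CPM. Of the barcodes, 11 were shared between libraries, none of them among members. No doublet caller was run.

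Counts were summed per class and library and divided by the class total (CPM). Log2 ratios used a prior of 50 CPM, and genes with at least 50 UMIs over the members were tested for a 2-fold difference, without p-values. The rule genes of both classes were left out of calls and list medians. Genes named as higher (12) or lower (10) had the largest of the smallest library ratios, with the same sign in all 4 libraries. From the lists, genes past 2-fold or with the highest levels were named. Shares have exact Clopper-Pearson intervals and ratios of shares exact conditional intervals, at 95%. Pecam1, Ackr1 and 11 other list genes had no row under these symbols, so the blood endothelial class rests on Cdh5, Flt1 and Emcn. The members and lists were chosen with earlier results of these data known. The scripts were tested on simulated data and used Python 3.11.15, numpy 2.4.6, scipy 1.17.1, pandas 2.3.3 and matplotlib 3.10.9.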

Additional observations from a re-analysis of the deposited data

Results flagged for a closer look

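The share of members differed in sign between the 2 muscles under the same contrast. On the log2 scale, the library labelled DMD over that labelled WT was 2.24 in TA and -0.09 in EOM. The direction of the EOM value changed with the setting. The share in EOM labelled DMD was above that in EOM labelled WT with at least 1000 UMIs (0.517% against 0.502%), with at least 3 UMIs over the 4 genes (0.478% against 0.475%) and with at most 10% mitochondrial UMIs (0.398% against 0.12%). It was below under the remaining alternatives, such as thinning (0.347% against 0.634%) and leaving out members with another cell type's markers (0.347% against 0.555%). Each value sets 1 library against 1, the counting interval of the EOM ratio runs from 0.341 to 2.82 on the linear scale, and the difference between the muscles was not tested.

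Cells that the comparisons leave out also held transcripts of the rule genes or of Ccl21. Among barcodes removed for their genes or mitochondrial UMIs, 6 met the marker part of the rule, and 3 of these had at least 10 UMIs of Ccl21. Among kept cells, 12 were left out for Mrc1 alone and had at least 10 UMIs of Ccl21. A further 12 kept cells, all in TA labelled DMD, had at least 10 UMIs of Ccl21 and none of the 4 rule genes. Other markers of these last 12 cells were not examined, so their cell type was not tested.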

How the results depend on the processing

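No paired analysis was possible because each muscle and label has 1 library. The contrasts of genes between libraries and their alternatives were not run, since 3 libraries have fewer than 20 members. Of 32 alternative values of the 4 shares, 25 stayed within the interval of the main share. In TA labelled DMD the share was 0.281% with at least 3 UMIs, 0.0819% with at least 3 genes, 0.222% without members holding another cell type's markers, 0.187% after thinning and 0.176% for members with at least 10 Ccl21 UMIs. It was 0.26% for members with at least 10 Ccl21 UMIs in EOM labelled DMD and 0.12% with at most 10% mitochondrial UMIs in EOM labelled WT. The alternatives on Ccl21, on members over 20000 UMIs, on equal weights per member and without TA labelled WT were chosen after seeing the data.

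The count of genes at least 2-fold lower was 159 without members holding another cell type's markers and 116 without members over 20000 UMIs, while the other 20 counts of genes were within 1.5 times the main ones. Of 144 alternative list medians, 14 moved by more than the SD over the 4 libraries. Leukocyte trafficking stood at -1.04 without members holding other markers, -0.48 after thinning and -0.61 without members over 20000 UMIs. Valve and flow genes stood at -0.82, -0.67, -0.71 (at most 10% mitochondrial) and -0.02 (all genes with a UMI). Pan-endothelial genes stood at -0.30 (all genes with a UMI), -1.05 (at most 10% mitochondrial), -0.82 (median-ratio size factors) and -0.80 (without members over 20000 UMIs). Lymphatic identity genes stood at 2.04 and cell cycle genes at 0.53 with each member weighted equally, and lymphatic identity genes at 1.97 with a prior of 10 CPM. Of 242 values of the 22 named genes, 26 moved by more than the SD over the 4 libraries. A further 1 changed sign, Igfbp3 at 0.71 against venous cells only. Median-ratio scaling moved the median of all tested genes to -0.14. The cause of these moves was not tested. The 2 members of TA labelled WT limit the lower share, and a count of 0 there would allow 0.142% of cells.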

Other observations

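The regenerating family gene Reg3g, a secreted lectin of epithelia, had 345 UMIs in the members, all in 1 member of TA labelled WT that held 12751 UMIs and no Ccl21. Mgp, the matrix Gla protein that inhibits calcification, had 429, 700, 3501 and 57 CPM in members of TA labelled DMD, TA labelled WT, EOM labelled DMD and EOM labelled WT, against 754, 103, 310 and 82.6 CPM in blood endothelial cells, and 271 of its 609 UMIs came from 1 member. Both genes were chosen after their values were seen. Bst2 (tetherin), a membrane protein induced by interferon, was found in 57 of 59 members, with 3773 CPM over the sum of the Ccl21-high members and 1096 CPM over that of the members without Ccl21.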
